A study of Danio rerio with 4 samples.

Results

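The genes described here are the cyclins, the cyclin-dependent kinases and the genes of the mitotic apparatus, in the eyes of zebrafish embryos. They were chosen by gene symbol alone: the *ccna*, *ccnb*, *ccnd* and *ccne* cyclins, the numbered *cdk* genes, the *aurk* and *plk* kinases, the *bub* and *cenp* genes, *kif11*, *kif20* and *kif23* motors, and *ndc80*, *nuf2*, *mad2l1*, *ttk*, *cdc20* and *top2a*. The rule found 76 symbols that stand in the tables of both stages, out of 31388 genes listed at 36 hours post-fertilization (hpf) and 31950 at 72hpf. The name rule also takes in genes that were grouped here outside the cell cycle roles, such as the transcription kinases and the activators of cdk5, and these are described apart.

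RNA was sequenced from whole dissected eyes of *tet2-/-;tet3-/-* mutants and of their siblings, all of strain TL, at 36hpf and at 72hpf, with 1 sample per genotype and stage, 4 in all. Tet enzymes oxidise 5-methylcytosine in DNA to 5-hydroxymethylcytosine. The mutants came from crosses of double heterozygous fish and carried frameshift alleles in every cell, and the siblings were phenotypically wild-type, so heterozygous carriers may be among them. Each sample pooled many eyes.

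A cell divides by passing through G1, S, G2 and M phase. D-type cyclins with cdk4 and cdk6, then E-type cyclins with cdk2, commit a cell to DNA synthesis, A-type and B-type cyclins with cdk1 bring it into mitosis, polo and aurora kinases build the spindle, the kinetochore ties each centromere to spindle fibres, and the checkpoint proteins hold back cdc20 until all are attached. In the vertebrate retina these genes are expressed by progenitor cells, which leave the cycle as they become neurons, and in zebrafish most of the retina has left it by the later of the stages sampled, with divisions continuing in the ciliary marginal zone at the rim.

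The 36hpf values are read counts, 106912677 reads in mutant-labelled eyes and 88875538 in sibling-labelled eyes, scaled for depth, and a fold-change is the log2 ratio of mutant-labelled over sibling-labelled eyes. Its exact (Clopper-Pearson) 95% interval covers counting error only. The 72hpf values are FPKM, a level per length of transcript, for which no depth per library is known, and a change is the difference of log2(FPKM + 1), mutant-labelled minus sibling-labelled. *tet2* had 12459 reads in mutant-labelled and 9646 in sibling-labelled eyes at 36hpf (log2 0.07), and 34.1 against 33.6 FPKM at 72hpf. *tet3* had 8611 and 8381 reads (-0.26), and 37.9 against 55.9 FPKM. The study found no *tet2* transcript in other mutant embryos with these alleles, so *tet2* reads that are not lower go against the mutant label at both stages. Reads over the whole gene do not separate frameshift from wild-type transcripts, and the *tet2* and *tet3* values do not settle the labels. The study states that its 36hpf mutant reads held no wild-type *tet2* or *tet3* transcripts. At 72hpf other genes went the way the study saw in mutant retinas by in situ hybridization. *opn1sw1* had 32.1 FPKM in mutant-labelled and 3591 in sibling-labelled eyes, *opn1mw1* 22.0 and 2093, and *nppa* 12.1 and 0.15. All directions that follow are between libraries named by their labels. Each genotype has a single sample, so no test across samples was run, the spread between embryos is unknown, and sizes are given beside those of all genes. Sequencing and processing differed between the stages, and levels are therefore not compared across them.

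Most members were higher in mutant-labelled eyes at 72hpf. At 36hpf most were close to the sibling level or slightly below it, apart from some lower G1 genes and a much higher *plk2a*, described below. At 72hpf, 70 members reached 1 FPKM in either library, and 54 of them (77.1%) were above 0, where 51.8% of 16852 genes were. Of the 70, 10 (14.3%) were at 1 or more on the log2 scale, against 3.58% of all genes, and 42 (60.0%) were at 0.5 or more, against 16.3%. Only 3 members (4.29%) were at -1 or less, against 9.06% of all genes. The median of the members was 0.65 and that of all genes 0.02. Since the tissue was sequenced in bulk, more or fewer cells of a type and more or less RNA per cell cannot be told apart, here and in all results that follow.

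At 36hpf, 74 members had at least 20 reads over both libraries, and their median was -0.12, with quartiles of -0.32 and 0.02, where the median of 21876 genes was 0.01. Above 0 were 20 members (27.0%), against 51.0% of all genes, or 39.2% of members against 53.5% of all genes when scaled by library totals. A single member (1.35%) was at 1 or more, against 8.9% of all genes, and 3 (4.05%) were at -1 or less, against 6.15%. At -0.5 or less stood 12 members (16.2%), a share near the 14.8% of all genes. Of the 69 members kept at both stages, 39 (56.5%) were below 0 at 36hpf and above 0 at 72hpf, against 23.9% of 15441 genes. A joint share near this already follows from the shares at the single stages. Many of the 36hpf values lie close to 0 and their sign depends on the scaling, so the joint share is not read as a reversal. Across these 69 genes, which share libraries and are not independent replicates, the changes at the 2 stages had a Pearson r of 0.17 and a Spearman rho of 0.20.

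Of the members, 49 were assigned to cell cycle roles, and 47 of these were kept at 72hpf. All 47 were above 0, under each of the scalings tried as well, against 51.8% of all genes. At 0.5 or more were 41, against 16.3% of all genes. The roles were set after the values were seen, so these counts describe the grouping and do not test it. They depend on which members were placed in the roles. Of those placed outside and kept at 72hpf, 3 of 8 transcription kinases were above 0. So were 1 of 9 in the group of cdk5, its activators and other kinases, and 3 of 6 others matched by name. With no minimum of FPKM, 48 of the 49 cell cycle members were above 0. The kept cell cycle members had FPKM values in mutant-labelled eyes 1.195 to 2.97 times those in sibling-labelled eyes, with a median of 1.82. The FPKM of all 49 summed to 1153 in mutant-labelled and 624 in sibling-labelled eyes. At 36hpf the same 49 genes took 0.686% of the reads in mutant-labelled and 0.762% in sibling-labelled eyes. Most of that gap lay in the G1 genes, which took 0.126% in mutant-labelled and 0.200% in sibling-labelled eyes, while the other 41 took 0.560% and 0.562%. Most of the G1 reads were those of a single gene, *ccnd1*, with 104509 in mutant-labelled and 138808 in sibling-labelled eyes, so the G1 share chiefly follows that gene.

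**Figure D1:**
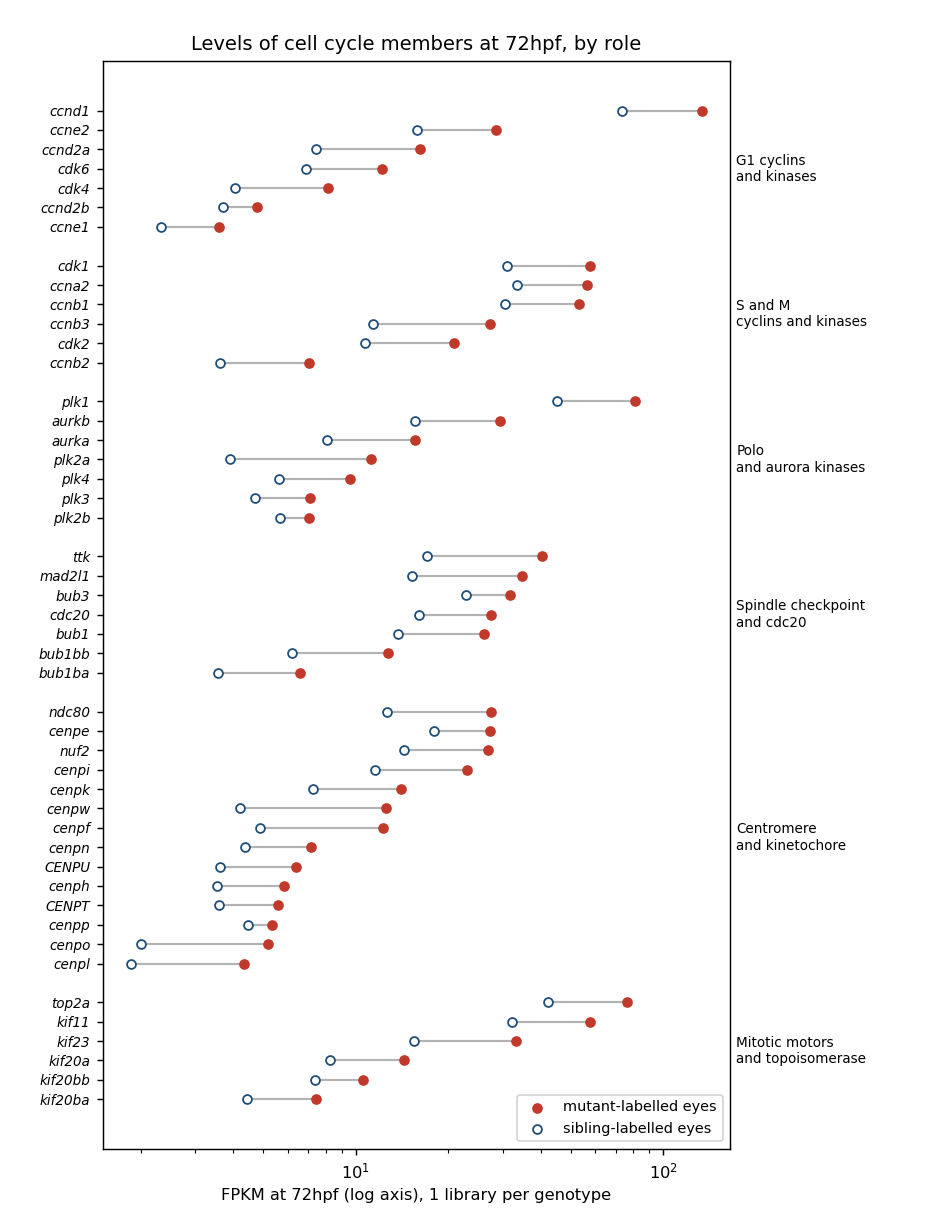
FPKM at 72hpf (x axis, log scale) of each cell cycle member kept at that stage, grouped by role down the page. Filled points are mutant-labelled and open points sibling-labelled eyes, 1 library each, and in all 47 genes the filled point lies to the right.

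The G1 genes were split at 36hpf, with 4 of 8 well below the sibling level and the others near or above it. *cdk6*, a kinase partner of D-type cyclins (chromosome 19, 40661576 to 40741429, GRCz10 coordinates as the deposited table gives them), had 3985 reads in mutant-labelled and 7495 in sibling-labelled eyes at 36hpf (log2 fold-change -1.21, interval -1.26 to -1.15). *ccnd1*, the cyclin D1 gene (chromosome 7, 54400401 to 54409943), had 104509 reads in mutant-labelled and 138808 in sibling-labelled eyes (-0.70, interval -0.72 to -0.69). The cyclin E genes *ccne1*, with 2020 reads in mutant-labelled and 2862 in sibling-labelled eyes (-0.80), and *ccne2*, with 16755 and 23166 (-0.76), were also lower. So cyclin D1, 1 of the kinases it binds and both cyclin E genes were below the sibling level together. *cdk4*, the other kinase of D-type cyclins, was above it, with 4965 reads in mutant-labelled and 3358 in sibling-labelled eyes (0.27, interval 0.21 to 0.33). The second cyclin D genes were near it, *ccnd2a* with 1827 and 1336 reads (0.16) and *ccnd2b* with 741 and 613 reads (-0.02, interval -0.18 to 0.14). *ccnd3* had 126 and 79 reads, too few to separate from no change (0.38, interval -0.04 to 0.80).

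At 72hpf all 7 G1 genes kept were above the sibling level, the 4 at -0.70 or less at 36hpf included. *ccnd1* had the highest FPKM of the cell cycle members in both libraries, 133.2 in mutant-labelled and 73.3 in sibling-labelled eyes (difference of log2(FPKM + 1) 0.85). *cdk6* had 12.2 FPKM in mutant-labelled and 6.87 in sibling-labelled eyes (0.74), *ccne2* 28.5 and 15.8 (0.81), and *ccne1* 3.59 and 2.32 (0.47). *ccnd2a* had 16.2 and 7.41 FPKM (1.03) and *cdk4* 8.15 and 4.03 (0.86). The smallest difference in this role was that of *ccnd2b*, with 4.76 FPKM in mutant-labelled and 3.69 in sibling-labelled eyes (0.29). *ccnd3* stayed under 1 FPKM in both libraries, at 0.44 and 0.15.

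The cyclins and kinases of S and M phase were slightly below the sibling level at 36hpf and well above it at 72hpf. *ccna2*, the cyclin A of dividing somatic cells, had 34643 reads in mutant-labelled and 34371 in sibling-labelled eyes (-0.28), and *ccnb1*, a mitotic cyclin, had 32200 and 29805 (-0.18). *ccnb2* was at -0.18, *ccnb3* at -0.11, and the S-phase kinase *cdk2* at -0.32. *cdk1*, the mitotic kinase, had 25639 and 20472 reads (0.03, interval 0.00 to 0.06). The exception was *ccna1*, a cyclin A best known from germ cells in mouse, with 37 reads in mutant-labelled and 70 in sibling-labelled eyes (-1.20, interval -1.83 to -0.62), which was under 1 FPKM at 72hpf.

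At 72hpf *cdk1* had 57.9 FPKM in mutant-labelled and 31.1 in sibling-labelled eyes (0.87), *ccna2* 56.3 and 33.5 (0.73), and *ccnb1* 53.1 and 30.5 (0.78). *ccnb3* (chromosome 7, 22710745 to 22733535) had the largest difference of this role, 27.4 FPKM in mutant-labelled and 11.4 in sibling-labelled eyes (1.196). *cdk2* had 20.9 and 10.7 FPKM (0.90) and *ccnb2* 7.04 and 3.61 (0.80). These 6 genes were 1.68 to 2.404 times higher in mutant-labelled eyes, a narrower range than that of all cell cycle members.

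**Figure D2:**
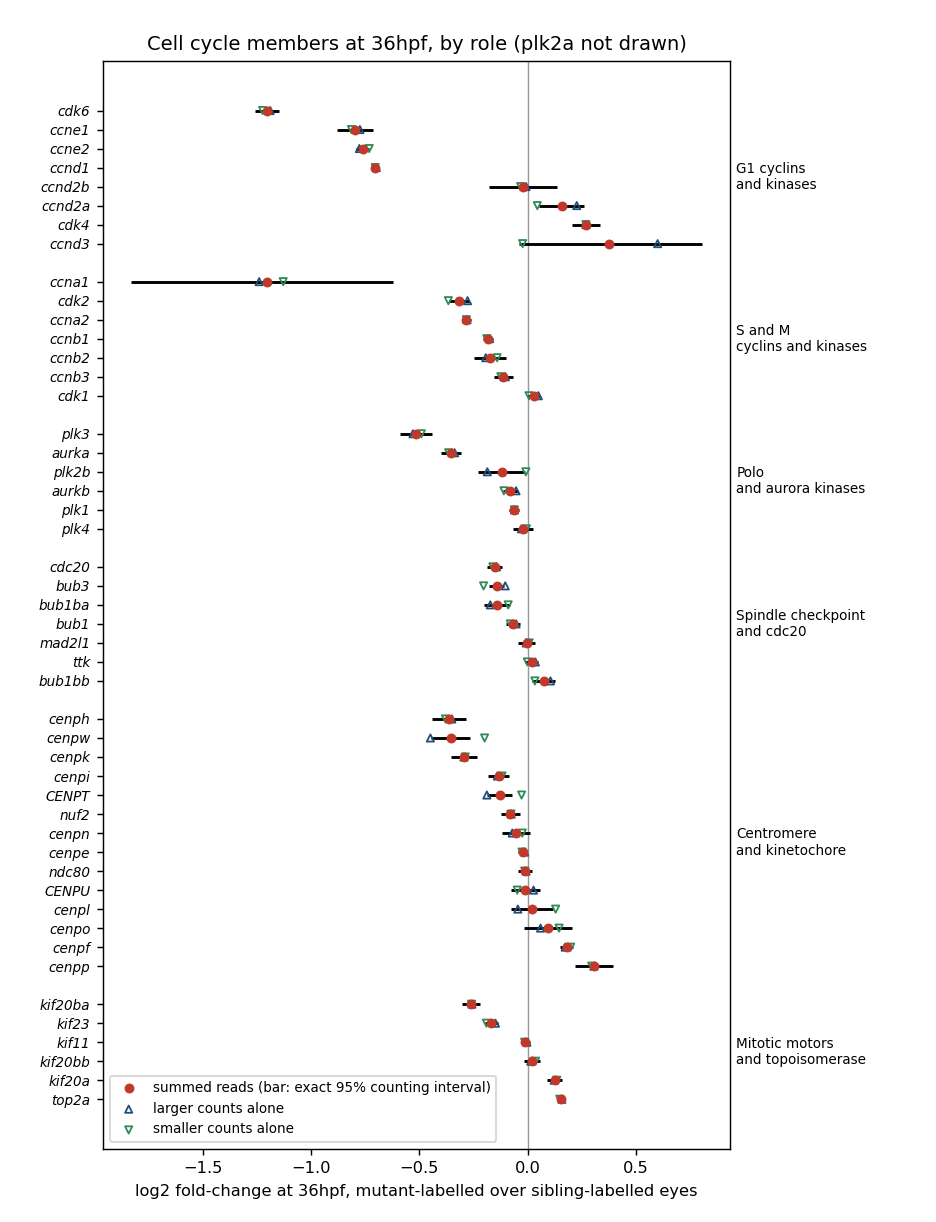
Log2 fold-change at 36hpf (x axis, mutant-labelled over sibling-labelled eyes) of the cell cycle members by role. Red points use all reads with their exact 95% counting interval, and triangles the larger or the smaller of the 2 counts behind each deposited value. The triangles are parts of the same reads and are not replicates. *cdk6*, *ccne1*, *ccne2* and *ccnd1* lie at -0.70 or below with all reads, and *plk2a*, at 2.97, is left out of the axis.

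*plk2a* stood apart from all other members at 36hpf. Its mammalian counterpart encodes a polo-like kinase of centriole duplication and of responses to stress and growth signals. The gene (chromosome 10, 4476568 to 4485777) had 7767 reads in mutant-labelled and 807 in sibling-labelled eyes, a log2 fold-change of 2.97 (interval 2.87 to 3.08) or 7.85-fold, and ranked 72 from the highest of 21876 genes. Of the 2 counts behind each value, the larger were 4990 and 477 reads and the smaller 2777 and 330. Their origin is not known, so they do not replicate the difference. At 72hpf it had 11.2 FPKM in mutant-labelled and 3.91 in sibling-labelled eyes (1.32), the second highest difference among the members. It was the only member at 1 or more at both stages.

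The other polo and aurora kinases did not share that pattern. The paralog *plk2b* had 1468 reads in mutant-labelled and 1300 in sibling-labelled eyes (-0.12), and 7.06 against 5.65 FPKM at 72hpf (0.28). *plk1*, the kinase of mitotic entry and spindle assembly, had 39110 and 33317 reads (-0.06), and 80.6 against 45.2 FPKM (0.82). *plk3* was lower at 36hpf, with 2861 reads in mutant-labelled and 3336 in sibling-labelled eyes (-0.52, interval -0.59 to -0.44), and higher at 72hpf, with 7.10 and 4.71 FPKM (0.50). *plk4*, which starts centriole duplication, was at -0.02 and 0.68. The centrosomal kinase *aurka* had 7269 and 7568 reads (-0.35), and 15.6 against 8.04 FPKM (0.88), while *aurkb*, of the chromosomal passenger complex, had 13438 and 11578 reads (-0.08), and 29.4 against 15.6 FPKM (0.87). Except for *plk2b*, each kinase of this role was at 0.5 or more at 72hpf.

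The spindle checkpoint genes showed the tightest values at 36hpf, with all 7 between -0.15 and 0.07. *ttk*, the kinase that starts checkpoint signalling, had 17489 reads in mutant-labelled and 14082 in sibling-labelled eyes (0.02), and *mad2l1*, which holds back cdc20, had 11627 and 9508 (-0.00, interval -0.04 to 0.04). *cdc20* was the lowest at -0.15. At 72hpf the same genes had a median of 0.88. *ttk* had 40.2 FPKM in mutant-labelled and 17.04 in sibling-labelled eyes (1.19), *mad2l1* 34.6 and 15.3 (1.13), and *bub1*, a checkpoint kinase, 26.1 and 13.7 (0.88). *cdc20* had 27.6 and 16.02 FPKM (0.75), and *bub3*, which recruits bub1 to kinetochores, 31.8 and 22.9 (0.46), the smallest difference of the role. Zebrafish has a pair of bub1b genes, and *bub1ba* (6.60 and 3.55 FPKM, 0.74) and *bub1bb* (12.7 and 6.21 FPKM, 0.93) were both higher.

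The 14 centromere and kinetochore genes lay between -0.36 (*cenph*) and 0.30 (*cenpp*) at 36hpf, with a median of -0.04, and between 0.21 and 1.37 at 72hpf, with a median of 0.86. These ranges leave out *cenpv*, which was grouped outside this role and had 10 and 30 reads at 36hpf (-1.82). *cenpw*, a histone-fold subunit of the inner kinetochore, had the largest difference of all members at 72hpf, 12.5 FPKM in mutant-labelled and 4.21 in sibling-labelled eyes (1.37). Its listed locus (chromosome 16, 40181440 to 40390486) was shared with 4 other genes and is not the span of *cenpw* alone. At 36hpf *cenpw* was lower, with 2020 and 2107 reads (-0.35). *cenpf*, a large outer kinetochore protein of G2 and M phase, had 12.2 and 4.89 FPKM (1.16) and *cenpo* 5.17 and 2.01 (1.04). The microtubule-binding subunits *ndc80* (27.6 and 12.7 FPKM, 1.06) and *nuf2* (26.9 and 14.4 FPKM, 0.86) were higher together, and so were the inner subunits *cenpi* (23.0 and 11.5 FPKM, 0.94) and *cenpk* (14.01 and 7.26 FPKM, 0.86). At 36hpf *ndc80* had 18233 reads in mutant-labelled and 14995 in sibling-labelled eyes (-0.01), and *nuf2* had 8708 and 7502 (-0.08). The kinetochore motor *cenpe* had 27.3 and 17.9 FPKM (0.58). *cenpp* was the only gene of this role under 0.5 at 72hpf, with 5.34 and 4.47 FPKM (0.21), and the highest of it at 36hpf (0.30).

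The mitotic motors and topoisomerase II were at the sibling level at 36hpf, with a median of 0.00 that turned to -0.01 with DESeq2 size factors. *top2a*, which untangles sister chromatids, had 93977 reads in mutant-labelled and 68961 in sibling-labelled eyes (0.15, interval 0.14 to 0.17), and *kif11*, the motor that separates the spindle poles, had 42711 and 35076 (-0.01). *kif20ba* was the lowest of the role at -0.26. At 72hpf *top2a* had 76.3 FPKM in mutant-labelled and 42.1 in sibling-labelled eyes (0.84), *kif11* 57.8 and 32.3 (0.82), and *kif20a*, a motor of cytokinesis, 14.4 and 8.24 (0.73). *kif23*, also a motor of cytokinesis, had the largest difference of the role, with 33.2 and 15.5 FPKM (1.05). *kif20bb* had the smallest, 10.5 and 7.36 FPKM (0.46).

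Leaving out the G1 genes, 40 cell cycle members were kept at 72hpf. Of these, 25 were 1.5 to 2 times the sibling level, 11 were over 2 times and 4 under 1.5 times. At 36hpf 38 of the 41 such members were within 0.4 of 0 on the log2 scale, and the 3 outside that range were *ccna1*, *plk2a* and *plk3*. The quartiles of all genes at 36hpf, -0.28 and 0.37, also lay within it. The shares of all genes in these bands were not counted, so the counts are not read as a trait of the members.

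The transcription kinases, which the name rule includes, did not follow the cell cycle members at 72hpf. *cdk7*, *cdk8* and *cdk9* act on RNA polymerase II or the Mediator complex, and *cdk12* and *cdk13* on transcript elongation. At 72hpf the 8 genes of this role lay between -0.58 and 0.25, with a median of -0.05, and their summed FPKM was 117.1 in mutant-labelled and 116.6 in sibling-labelled eyes. *cdk9* had 29.8 and 24.97 FPKM (0.25), *cdk7* 14.5 and 12.8 (0.17), and *cdk12* 21.0 and 21.1 (-0.01). *cdk10* had the lowest difference, with 5.78 and 9.12 FPKM (-0.58). At 36hpf 1 of the 8 was above 0, as were 14 of the 49 cell cycle members and 51.0% of all genes. *cdk8* was the lowest, with 6684 reads in mutant-labelled and 7676 in sibling-labelled eyes (-0.49).

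The 4 activators of cdk5 differed in size and direction at 72hpf, with *cdk5r2b* the furthest from the sibling level. Cdk5 is bound not by a cyclin but by p35 and p39, which postmitotic neurons make, and zebrafish has a pair of genes for each. *cdk5r2b*, a p39 gene (chromosome 9, 11560821 to 11563419), had 2.16 FPKM in mutant-labelled and 19.4 in sibling-labelled eyes (-2.69), 112 from the lowest of 16852 genes, whereas its paralog *cdk5r2a* had 22.7 and 18.9 FPKM (0.26). The p35 genes *cdk5r1a* (4.11 and 7.88 FPKM, -0.80) and *cdk5r1b* (28.0 and 39.0 FPKM, -0.47) were lower. The kinase *cdk5* itself had 14.7 and 15.8 FPKM (-0.09). At 36hpf the activators had few reads, 51 in mutant-labelled and 39 in sibling-labelled eyes for *cdk5r2b* (0.09, interval -0.54 to 0.73) and 60 and 80 for *cdk5r1b* (-0.70, interval -1.22 to -0.21), with 12 and 14 for *cdk5r1a*. *cdk5* had 7514 and 7621 reads (-0.31).

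Among the remaining kinases, *CDK18* (chromosome 11, 38013302 to 38154553) was lower at both stages, with 61 reads in mutant-labelled and 96 in sibling-labelled eyes (-0.94, interval -1.44 to -0.47), and 2.61 against 9.83 FPKM (-1.59). *cdk14*, which in mammals links cyclin Y to Wnt signalling, had 364 and 297 reads (-0.00), and 0.57 against 2.24 FPKM (-1.04). At this low level the added FPKM sets the size, which was -1.80 with 0.1 FPKM added in place of 1. *cdk20* was higher at 36hpf with 175 and 100 reads (0.51, interval 0.15 to 0.88) and lower at 72hpf with 3.06 and 5.17 FPKM (-0.60). *cdk16* had 3146 and 2518 reads (0.03). It stands on 2 rows at 72hpf and was left out there, with 22.4 FPKM in mutant-labelled and 32.3 in sibling-labelled eyes on chromosome 8, and 9.73 and 9.87 on chromosome 4. Genes matched by the start of their symbol only, such as *cdk2ap2* and *cdk5rap3*, had a median of -0.36 at 36hpf, with *CDK5RAP2* the highest at 0.27, and of -0.11 at 72hpf. The centriole gene *cenpj* was the highest of them at 72hpf, with 3.19 and 1.96 FPKM (0.50), and had 3959 and 4710 reads at 36hpf (-0.54).

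**Figure D3:**
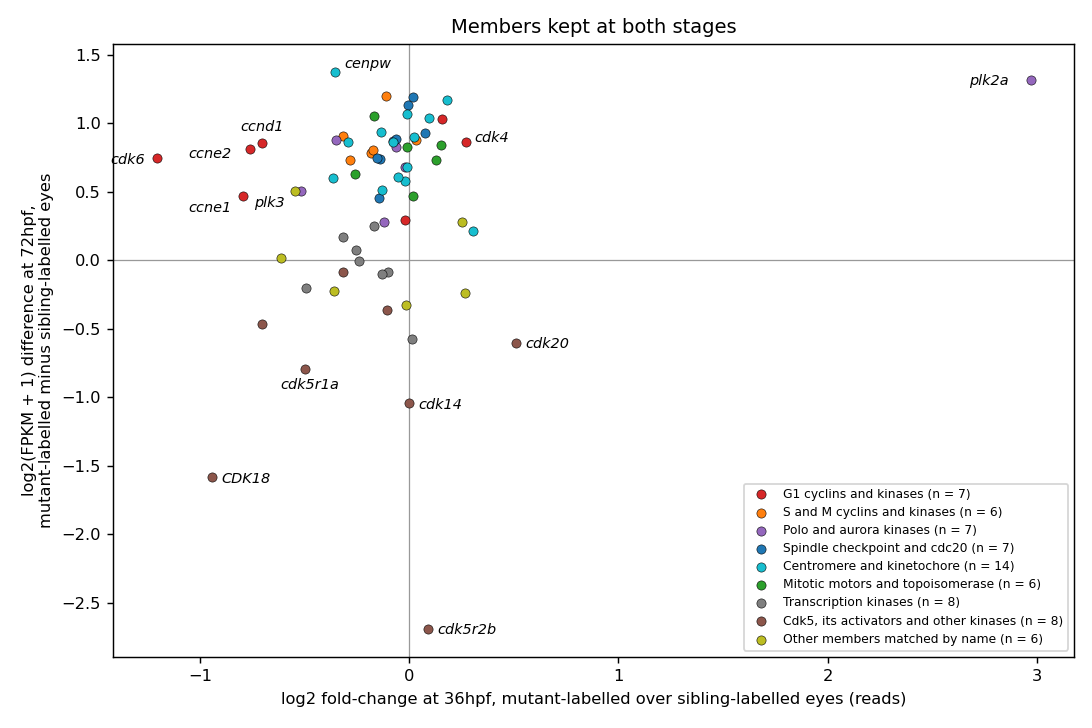
Change at 36hpf (x axis, log2 fold-change of reads) against change at 72hpf (y axis, difference of log2(FPKM + 1)), both mutant-labelled against sibling-labelled eyes, for the 69 members kept at both stages, coloured by role. The cell cycle members lie above 0 on the y axis, the transcription kinases around it, and *CDK18*, *cdk14* and *cdk5r2b* at -1.04 or less, with *plk2a* alone at the right.

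The members that could not be described at both stages were few. *CCNB1IP1*, a meiotic gene, had 4 and 2 reads and was listed at 0 FPKM in both libraries. *cdk5r2a* had 3 and 4 reads at 36hpf. *cenpv* had 10 reads in mutant-labelled and 30 in sibling-labelled eyes at 36hpf (-1.82, interval -3.08 to -0.81), and *cdk21* had 17 and 26 reads, and both were under 1 FPKM at 72hpf, like *ccna1* and *ccnd3*. *cdk17* was in the 36hpf table only, with 1222 and 713 reads (0.48, interval 0.35 to 0.62), and a second *cenpf* gene, *CENPF (2 of 2)*, in the 72hpf table only, with 3.93 and 3.14 FPKM (0.25). Reads shared between such copies could be split between them, so the *cenpf* values are uncertain. At 72hpf 14 members, *cdk2*, *cdk4*, *ccne2*, *cenpe*, *cenpw* and *nuf2* among them, shared their listed locus with neighbouring genes. The locus of *cenpe* was shared with 29 other genes and that of *cenpw* with 4. Reads of such neighbours may not have been separated if strand was not used.

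The 36hpf values are means of 2 counts, and these agreed closely for the members. Over 60 members with at least 1000 reads in each library, the ratio of the larger to the smaller count varied between genes by an SD of 0.0516 on the log2 scale in mutant-labelled and 0.0548 in sibling-labelled eyes. The fold-changes from the larger and from the smaller counts had the same sign for 53 of the 60 genes, with a median absolute difference of 0.038 and a largest of 0.278. No source says whether the 2 counts come from separate samples, so they were not used as replicates.

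Other genes of the cycle gave values like those of the members in the same libraries. Their lists were drawn up by function, with earlier results of these data known, and are not independent support. Of all genes kept at 72hpf, 51.8% were above 0 and 16.3% at 0.5 or more. Of 47 other mitotic genes kept at 72hpf, all 47 were above 0 and 42 at 0.5 or more (median 0.81), and at 36hpf 48 such genes had a median of -0.12. *mki67*, the marker of cycling cells, had 194981 reads in mutant-labelled and 156253 in sibling-labelled eyes at 36hpf (0.03), and 79.4 against 47.9 FPKM at 72hpf (0.72). Of 43 DNA replication genes, all 43 were above 0 and 34 at 0.5 or more (median 0.61), after a median of -0.11 over 45 genes at 36hpf. *pcna*, the sliding clamp of DNA polymerase, had 249.0 FPKM in mutant-labelled and 138.2 in sibling-labelled eyes at 72hpf (0.84), and *mcm7*, of the replicative helicase, 147.9 and 74.8 (0.97). All mitotic and replication genes kept were thus above the sibling level at the later stage, as were the cell cycle members.

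Regulators of the cycle outside the rule were mixed, with 30 of 37 above 0 at 72hpf and a median of 0.49. *foxm1*, a transcription factor of mitotic genes, had 12.8 FPKM in mutant-labelled and 5.75 in sibling-labelled eyes (1.03), and *cdc25b*, the phosphatase that activates cdk1, 52.0 and 27.4 (0.90). Some inhibitors of the cycle were higher too, *cdkn1ca* with 28.5 and 9.32 FPKM (1.51) and *cdkn1cb* with 9.83 and 2.92 FPKM (1.47), both p57 genes, while *cdkn1ba*, a p27 gene, had 9.69 and 16.4 FPKM (-0.70) and the other p27 gene *cdkn1bb* 79.6 and 57.3 (0.47). At 36hpf *cdkn1cb* had 664 reads in mutant-labelled and 1574 in sibling-labelled eyes (-1.54), and *mybl1*, of the Myb family, had 13193 and 27507 (-1.35). Both were lower at 36hpf and higher at 72hpf, as *cdk6*, *ccnd1* and *ccne2* were.

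**Figure D4:**
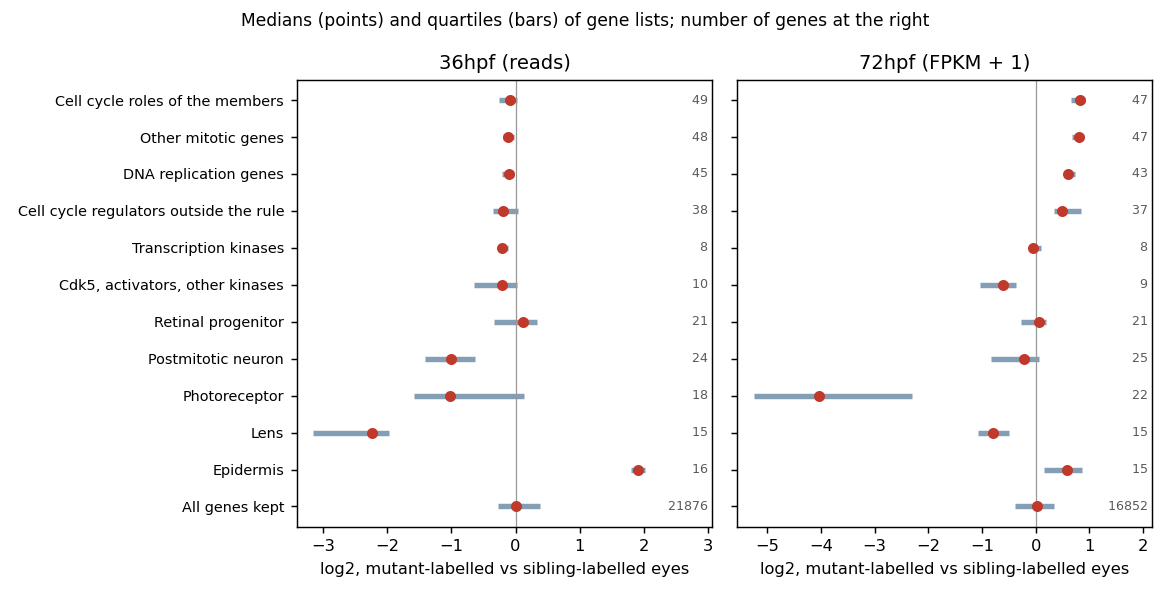
Median (points) and quartiles (bars) of the change in each gene list at 36hpf (left) and 72hpf (right), on the log2 scale, mutant-labelled against sibling-labelled eyes, with the number of genes beside each. At 72hpf the cell cycle members, other mitotic genes and DNA replication genes have medians of 0.61 to 0.82, and the regulators outside the rule 0.49. The epidermis list is at 0.57, the photoreceptor list at -4.03 and the retinal progenitor list at 0.05.

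Markers of other cell types moved with the labels too, and their part in the results above was not tested. Of 22 photoreceptor genes kept at 72hpf, 19 were at -1 or less, and the list summed to 983 FPKM in mutant-labelled and 14351 in sibling-labelled eyes, 0.178% and 2.71% of all FPKM, with no gene at 0. Lens genes summed to 13633 and 25550 FPKM, skeletal muscle genes, 17 of 20 of them at 1 or more, had a sum of 374 against 75.02 FPKM, and all 8 heart muscle genes kept were at 1 or more, with a sum of 66.6 against 1.41 FPKM and 4 of 9 listed at 0 in sibling-labelled eyes, the heart myosin gene *myl7* among them. Red blood cell genes summed to 1141 and 397 FPKM. Epidermis genes summed to 3577 and 2023 FPKM, with 13 of 15 above 0 (median 0.57). Of 11 pigment genes, 10 were above 0 (median 0.54), where 51.8% of all genes were. These 2 medians lay between those of the DNA replication genes (0.61) and of the regulators outside the rule (0.49), so differences of that size were not confined to cycle genes. Of 25 genes of postmitotic neurons, 5 were at -1 or less (median -0.21). When FPKM was taken relative to the total without the photoreceptor, muscle, heart and red blood cell genes, the median of the members was 0.57 and 6 of 70 were at 1 or more. The cell cycle members, all 47 still above 0, then had a median of 0.73.

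A list of retinal progenitor markers was mixed at 72hpf. The 21 genes had a median of 0.05, with quartiles of -0.28 and 0.19, and summed to 1678 FPKM in mutant-labelled and 1748 in sibling-labelled eyes. Above 0 were 11 of them, against 51.8% of all genes, and 3 were at 0.5 or more, against 16.3%. The cycle genes are chiefly expressed in progenitors in the retina, but the list does not measure progenitors alone. The study describes *pax6a*, which is on it, in ganglion and amacrine cells as well. At 36hpf the progenitor list had a median of 0.12. The neuron list had a median of -1.003 and took 0.102% of the reads in mutant-labelled and 0.158% in sibling-labelled eyes. At that stage epidermis genes took 1.006% of the reads in mutant-labelled and 0.256% in sibling-labelled eyes, with all 16 above 0 and 14 at 1 or more, and lens genes took 0.150% and 0.652%, with 13 of 15 at -1 or less. Marker levels of tissue outside the retina thus differed between the same libraries as *cdk6*, *ccnd1*, *ccne1*, *ccne2* and *plk2a*, and their part in those differences was not tested.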

How the data were processed

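Eyes of zebrafish embryos were dissected, and poly-A RNA was sequenced, with 1 sample per genotype and stage. The submitters' processing notes name FastQC, TopHat and GRCz10, and the study names CLC Genomics Workbench for 36hpf and the Cufflinks package for 72hpf; the sources used here do not give the annotation.

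The 36hpf table is headed FPKM, but the deposited values are expected counts in form, each the mean of 2 whole counts, unscaled, and the authors' neighbouring columns hold the mean log2 of the same 2 counts. Both counts were recovered for 31025 genes in mutant-labelled and 31109 in sibling-labelled eyes. Their sums, which needed no rounding, were scaled by TMM (edgeR 4.0.16), with 0.5 reads added per library in proportion to its size, and genes were kept from 20 reads over both libraries. For 72hpf the authors deposited FPKM, of which genes with at least 1 FPKM in either library were kept, leaving out 489 symbols that stand on more than 1 row. A further deposited table holds the authors' own fold changes and was not used.

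The members, lists and tests were chosen with earlier results of these data known. The grouping into 9 roles and the threshold of 0.5 were set after the values were seen. Of 75 member IDs with a symbol in the reference names, 65 carried the symbol of the table. Genes were named by a rule: members at 1 or more or -1 or less at either stage, the highest and lowest member of each role, and a fixed core. *cenpi*, *cenpk*, *cdk12*, *cdk13*, *cdk16*, *cdk2ap2*, *cdk21*, *CCNB1IP1* and genes that are not members were named in addition, after their values were seen. The steps were tested on simulated data. Promoter motifs and sequences were not analysed here. The values of 1 progenitor marker are not reported here.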

Additional observations from a re-analysis of the deposited data

Results flagged for a closer look

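The members listed here changed in opposite directions at the 2 stages, by 0.5 or more on the log2 scale at each. The share of all genes that did so was not counted, so their number is not read as a trait of the members. At the single stages, 14.8% of all genes were at -0.5 or less at 36hpf and 16.3% at 0.5 or more at 72hpf. *ccnd1* was at -0.70 at 36hpf and 0.85 at 72hpf, *ccne2* at -0.76 and 0.81, and *cdk6* at -1.21 and 0.74. *plk3* was at -0.52 and 0.50, and *cenpj* at -0.54 and 0.50. *cdk20* ran the other way, at 0.51 and -0.60. With 1 sample per genotype and stage, and with reads at one stage and FPKM at the other, the difference between the stages was not tested.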

How the results depend on the processing

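*cdk5r1a*, with 12 and 14 reads at 36hpf, was the only named member whose direction turned past 0.5 on the log2 scale. It was at -0.50 with all reads, -1.21 with the larger counts alone and 0.80 with the smaller counts alone. The medians of the members stayed between -0.13 and -0.09 at 36hpf and between 0.60 and 0.74 at 72hpf under library totals, DESeq2 size factors, other minimums, other added values, centring, TMM on FPKM, summed rows and the larger or smaller counts alone. The members at -1 or less at 36hpf numbered 3, but 5 with the smaller counts alone, where few reads stand behind the added genes. The members at 1 or more at 72hpf numbered 10, but 6 relative to the total without photoreceptor, muscle, heart and red blood cell genes, an alternative chosen after seeing the data. Members above 0 at 36hpf numbered 20, or 29 with library totals. Over the named genes, 384 values stayed within their counting interval at 36hpf and 19 left it, and at 72hpf 373 moved by less than 0.1 and 15 by more. No paired analysis was possible because the labels give 1 sample per genotype and stage and no replicate numbers pair them. The planned description of promoter motifs was not run, since no promoter sequences were at hand. Depth limits the cdk5 activators, *ccna1*, *ccnd3*, *cenpv* and *cdk21* at 36hpf. At 72hpf the FPKM table holds no counts per gene or library totals, so no interval was given.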
